A study of Homo sapiens with 12 samples.

Results

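Receptor-type protein tyrosine phosphatases are the subject here, with PTPRE (receptor-type protein tyrosine phosphatase epsilon) at their centre. Each gene probe of the array whose RefSeq accession names PTPRA, PTPRE, PTPRF, PTPRG, PTPRJ, PTPRK, PTPRM, PTPRS or PTPRU was taken, which gave 14 probes of 9 genes among the 41000 gene probes of the array, whose accessions name 16557 genes. A probe was tested when 5 or more of the 6 arrays in either condition read it well above background, and 12 of the 14 probes met this, against 24330 probes in all. The genes were chosen by the difference in PTPRE signal between the conditions on these arrays, which was known beforehand, together with the family PTPRE belongs to. The difference between conditions in these 9 genes is therefore given as a description. No p-value is printed for them, and the counts of probes past the thresholds, which come from the fit over all probes, support nothing.

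Protein tyrosine phosphatases remove phosphate groups from tyrosine and so oppose tyrosine kinases. Receptor-type members cross the membrane, with an extracellular part that binds matrix, proteoglycans or neighbouring cells and a catalytic part in the cytosol. In epithelial cells several of them sit at cell contacts, where cadherin and catenin complexes, growth factor receptors and Src family kinases are among their substrates.

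The RNA came from H358, a human lung adenocarcinoma line, as an H358/Tet-On/SRSF2 clone. This clone makes SRSF2 from a Tet-responsive promoter. SRSF2 is a splicing factor of the SR protein family. Both conditions are of this 1 clone. The 6 control arrays carry the treatment label "none", and whether these cells were given doxycycline was not stated. The 6 arrays labelled SRSF2 over-expression hold RNA taken 24 hours after induction with doxycycline at 1 µg/mL. All 12 are one-colour Agilent whole-genome arrays on 3 slides, with 2 arrays of each condition on every slide, and the study describes 3 labelings per condition with 2 arrays each. The spread between arrays, which is what each p-value measures, may thus be technical.

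Every value below, unless another unit is named, is log2(signal divided by the 75th percentile over gene probes of the same array), so 0 marks that percentile and -1 a signal of 50% of it. Differences are arrays labelled SRSF2 over-expression minus control arrays on that scale. The 75th percentile itself was a signal of 796 to 1093 on the control arrays and 980 to 1100 on the others. Between 54.2% and 67.8% of the control arrays' gene spots were well above background, and 55.2% to 68.0% on the others. The SRSF2 probe A_23_P77776 went against the label. Its level was 3.92 ± 0.10 (SD, n = 6) on control arrays and 2.47 ± 0.10 (SD, n = 6) on arrays labelled SRSF2 over-expression, a fall of 1.46 on the log2 scale (limma, adjusted p = 1.68e-09). The files do not say whether this probe reads the transgene, and the conditions are called by their labels throughout. The epithelial marker list was well above background in 14 of 18 probes on all control arrays and in 11 of 18 on all arrays labelled SRSF2 over-expression. Its summed signal ran from 925 to 1081 times and from 521 to 936 times, respectively, where 1 is the 75th percentile. Of its 15 tested probes, 5 rose, 3 fell and 7 did not pass an adjusted p of 0.05, with a median of -0.045. KRT7 was the only one past 2-fold (-1.32, limma adjusted p = 1.66e-09). Of 14 fibroblast and endothelial probes, 12 were well above background on no control array and 11 on none of the others. The 8 leukocyte probes summed to 16.6 to 18.5 times on control arrays and 18.5 to 21.9 times on the others. Of these 8, 4 were well above background on all 12 arrays, 3 on no control array and 2 on none of the others. Of the 5 tested leukocyte probes, 2 rose, 1 fell and 2 did not pass an adjusted p of 0.05, with a median of 0.20. PTPRC, the phosphatase CD45 that defines leukocytes, was well above background on 0 of 12 arrays, unlike the 4 probes above. The part of these markers in the results below was not tested.

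PTPRE and PTPRA are close relatives with short extracellular parts, known for activating Src family kinases by removing an inhibitory phosphate. PTPRE is also made as a cytosolic form that lacks the membrane-spanning part. The array holds 3 PTPRE probes, all listed under the same RefSeq transcript (NM_006504), so receptor and cytosolic forms were not told apart. All 3 had a lower mean on the arrays labelled SRSF2 over-expression, by 5.43-fold at A_24_P213494, 5.62-fold at A_24_P213503 and 1.67-fold at A_23_P138495.

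Probe A_24_P213494 was well above background on all 12 arrays. On control arrays its lowest level was -0.84, its median -0.70 and its highest -0.16. On arrays labelled SRSF2 over-expression the lowest was -3.49, the median -3.34 and the highest -2.25. The groups did not overlap and lay 1.41 apart at their nearest arrays. In the unit of the array's own 75th percentile, the control signals were 55.9% to 89.8% of it and the others 8.87% to 21.1%. The means were -0.58 ± 0.29 and -3.02 ± 0.60 (SD, n = 6), a difference of -2.44 (SE 0.25) or 5.43-fold. Within slides 1, 2 and 3 the difference was -2.70, -2.04 and -2.59. Slide 2 was the highest slide in both conditions.

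Probe A_24_P213503 gave a dimmer signal with the same order of slides. Its control levels had a lowest of -3.01, a median of -2.59 and a highest of -1.87, all well above background. On arrays labelled SRSF2 over-expression the lowest was -5.99, the median -5.20 and the highest -3.87, and only 2 of these 6 arrays were well above background. The groups again did not overlap, with 0.86 between their nearest arrays. The difference was -2.49 (SE 0.37), with -2.61, -1.93 and -2.93 within slides 1, 2 and 3. Since most of the lower arrays were near background, the probe's fold is also given with dim arrays raised. Each dim array was set to its own value or, where that was lower, to the dimmest signal still well above background there. The control was then 4.25-fold higher, which is no lower bound over other treatments of the background. Under normexp background correction the difference was -1.23, and with no background subtraction it was -1.40.

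Probe A_23_P138495 behaved differently from the other PTPRE probes. Its control arrays were tightly grouped, with a lowest level of -2.19, a median of -2.16 and a highest of -2.06, and slide 2 did not stand above the others. On arrays labelled SRSF2 over-expression the lowest was -3.36, the median -2.92 and the highest -2.06. The groups overlapped through 1 array, replicate 6 on slide 3, which lay at the top of the control range. The difference was -0.74 (SE 0.17), and it varied between slides, at -0.73, -1.13 and -0.36. It came to -0.54 without slide 2 and -0.93 without slide 3.

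**Figure D1:**
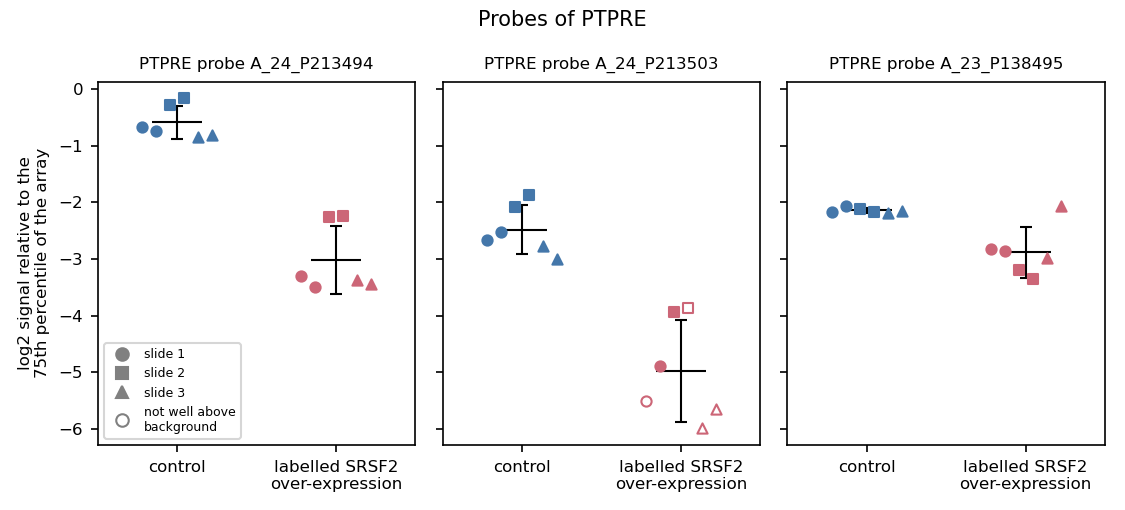
Log2 signal relative to each array's 75th percentile (y axis) for the 3 PTPRE probes on 6 control arrays and 6 arrays labelled SRSF2 over-expression. Symbols give the slide, open symbols mark arrays on which the probe was not well above background, and lines are mean ± SD. The groups are separated by 1.41 and 0.86 for the first 2 probes and overlap for A_23_P138495.

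Because the 3 probes were read on the same arrays, differences between them within an array do not depend on the scaling of that array. A_24_P213494 minus A_23_P138495 was 1.32 to 2.01 on control arrays, with a median of 1.42, and -1.39 to 1.11 on the others, with a median of -0.43. These ranges did not overlap, and the mean difference between the probes changed by -1.70, with -1.97, -0.91 and -2.23 within slides 1, 2 and 3. A_24_P213494 minus A_24_P213503 was 1.71 to 2.19 on control arrays and 1.40 to 2.62 on the others, which overlapped, with a change of 0.051. The change was larger at A_24_P213494 than at A_23_P138495. PTPRE was chosen for its difference in this contrast, so nothing is read from that inequality. Nor is a change between A_24_P213494 and A_24_P213503 read, since the latter was not well above background on 4 of the 6 arrays labelled SRSF2 over-expression. Under normexp background correction these probes differed between conditions by -1.66 and -1.23. Which exons the probes lie in was not examined here.

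PTPRA was read by 1 bright probe, A_23_P28869. Its control arrays had a lowest level of 1.14, a median of 1.45 and a highest of 1.54, and its arrays labelled SRSF2 over-expression a lowest of 0.49, a median of 0.64 and a highest of 0.78. Every control array was above every other array, by at least 0.36. The difference was -0.77 (SE 0.079) or 1.71-fold, and it was nearly even over the slides, at -0.72, -0.81 and -0.78.

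PTPRJ, also known as DEP-1 or CD148, has a long extracellular part of fibronectin repeats and is known as a growth inhibitory phosphatase of growth factor receptors. Probe A_24_P282434 had control levels from -1.97 to -1.69, with a median of -1.80, and levels from -2.46 to -2.05, with a median of -2.31, on arrays labelled SRSF2 over-expression. The groups did not overlap but came within 0.078 of each other. The difference was -0.48 (SE 0.072), with -0.52, -0.36 and -0.56 on slides 1, 2 and 3. The other PTPRJ probe, A_23_P405049, did not pass the filter. It was well above background on 1 control array and on none of the others, with levels of -5.90 to -4.71 and -6.65 to -5.96, and no fold is given.

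One further probe, A_24_P921321, is named PTPRJ by the study, but its accession (BC019824) has no symbol in the RefSeq table, and it was not counted among the 14 probes. Every one of the 12 arrays read it well above background. Its levels were -0.70 to 0.093 on control arrays, median 0.013, and -1.99 to -1.68 on the others, median -1.77. The groups lay 0.97 apart, and the difference was -1.69 (SE 0.12), or -1.80, -1.52 and -1.75 within the slides. Its difference from A_24_P282434 on the same array was 1.16 to 2.00 on control arrays and 0.12 to 0.71 on the others, a change of -1.21. Both probes were lower on every array labelled SRSF2 over-expression. A_24_P921321 was taken up after its values in this contrast were seen, so nothing is read from its larger fall.

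PTPRK, PTPRM and PTPRU share an extracellular MAM domain, and PTPRK and PTPRM are known to bind like molecules on neighbouring cells and to associate with cadherins and catenins. Each was read by 1 probe, and each was lower on average, by less than A_24_P282434 of PTPRJ. PTPRK (A_32_P99100) ranged from -0.19 to 0.023 on control arrays, median -0.031, and from -0.50 to -0.21 on arrays labelled SRSF2 over-expression, median -0.42. The groups did not overlap but were only 0.016 apart. The difference was -0.32 (SE 0.064), and -0.27, -0.46 and -0.24 on slides 1, 2 and 3.

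PTPRM (A_23_P159255) ranged from -2.04 to -1.51, median -1.77, and from -2.45 to -2.01, median -2.12, with an overlap between the highest of the lower group and the lowest of the control group. The difference was -0.39 (SE 0.097), with -0.42, -0.47 and -0.28 within the slides. PTPRU (A_23_P149064) ranged from -1.30 to -0.82, median -0.92, and from -1.61 to -1.10, median -1.26, which also overlapped. Its difference was -0.35 (SE 0.11), from -0.16 on slide 2 to -0.51 on slide 3, and control replicate 6 was well below the other control arrays.

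PTPRF, known as LAR, and PTPRS carry immunoglobulin and fibronectin domains, bind heparan sulfate proteoglycans and synaptic adhesion proteins, and hold liprins at their cytosolic part. PTPRF has 2 probes, and only A_23_P200984 did not overlap between conditions. It ranged from -0.99 to -0.74 on control arrays, median -0.82, and from -0.67 to -0.29 on arrays labelled SRSF2 over-expression, median -0.45, with no overlap and a gap of 0.070. Its difference was 0.39 (SE 0.070), with 0.44, 0.36 and 0.38 on the 3 slides.

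A_24_P385313 of PTPRF ranged from 4.49 to 4.93, median 4.78, and from 4.49 to 4.85, median 4.60, which overlapped almost completely. Its difference was -0.11 (SE 0.088, or 0.039 with the slide as a block), with -0.088, -0.17 and -0.066 on the 3 slides, and the groups were within each other's spread over all arrays. Its sign turned under spike-in scaling (0.099) and under normexp background correction (0.081). A_23_P200984 minus A_24_P385313 on the same array was -5.90 to -5.29 on control arrays and -5.53 to -4.79 on the others. These ranges overlapped over all arrays, but on each slide both arrays labelled SRSF2 over-expression lay above both control arrays, with changes of 0.52, 0.54 and 0.45.

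**Figure D2:**
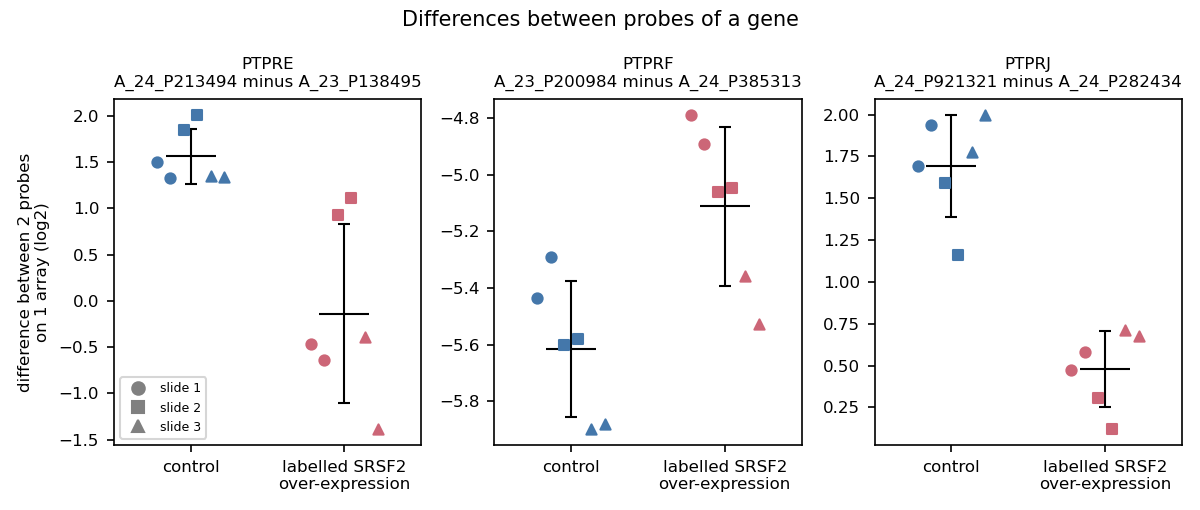
Difference between 2 probes on the same array (log2, y axis) for PTPRE, PTPRF and PTPRJ, on 6 control arrays and 6 arrays labelled SRSF2 over-expression. Symbols give the slide and lines are mean ± SD. The PTPRE difference, A_24_P213494 minus A_23_P138495, was lower on every array labelled SRSF2 over-expression. So was A_24_P921321 (named PTPRJ only by the study) minus A_24_P282434. The PTPRF difference was higher within each slide. PTPRE and A_24_P921321 were taken up with values of this contrast known, so nothing is read from their differences.

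PTPRS (A_23_P56163) ranged from -2.84 to -2.60 on control arrays, median -2.76, and from -2.67 to -2.24 on arrays labelled SRSF2 over-expression, median -2.44. The groups overlapped through replicate 6 of the arrays labelled SRSF2 over-expression, which lay below control replicate 1. The difference was 0.31 (SE 0.073), with 0.42, 0.30 and 0.20 on the 3 slides, and it was -0.071 under normexp. The second PTPRS probe, A_24_P290856, did not pass the filter. It was well above background on 2 arrays of each condition, its levels of -6.63 to -4.62 and -5.03 to -4.46 overlapped, and no fold is given.

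PTPRG, whose extracellular part holds a carbonic anhydrase-like domain and binds contactins, was the member with the highest difference. Probe A_23_P41054 ranged from -2.68 to -2.50 on control arrays, median -2.55, and from -2.18 to -1.82 on arrays labelled SRSF2 over-expression, median -2.08. The groups lay 0.32 apart. The difference was 0.52 (SE 0.067), with 0.47, 0.42 and 0.67 on slides 1, 2 and 3, and -0.012 under normexp background correction.

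**Figure D3:**
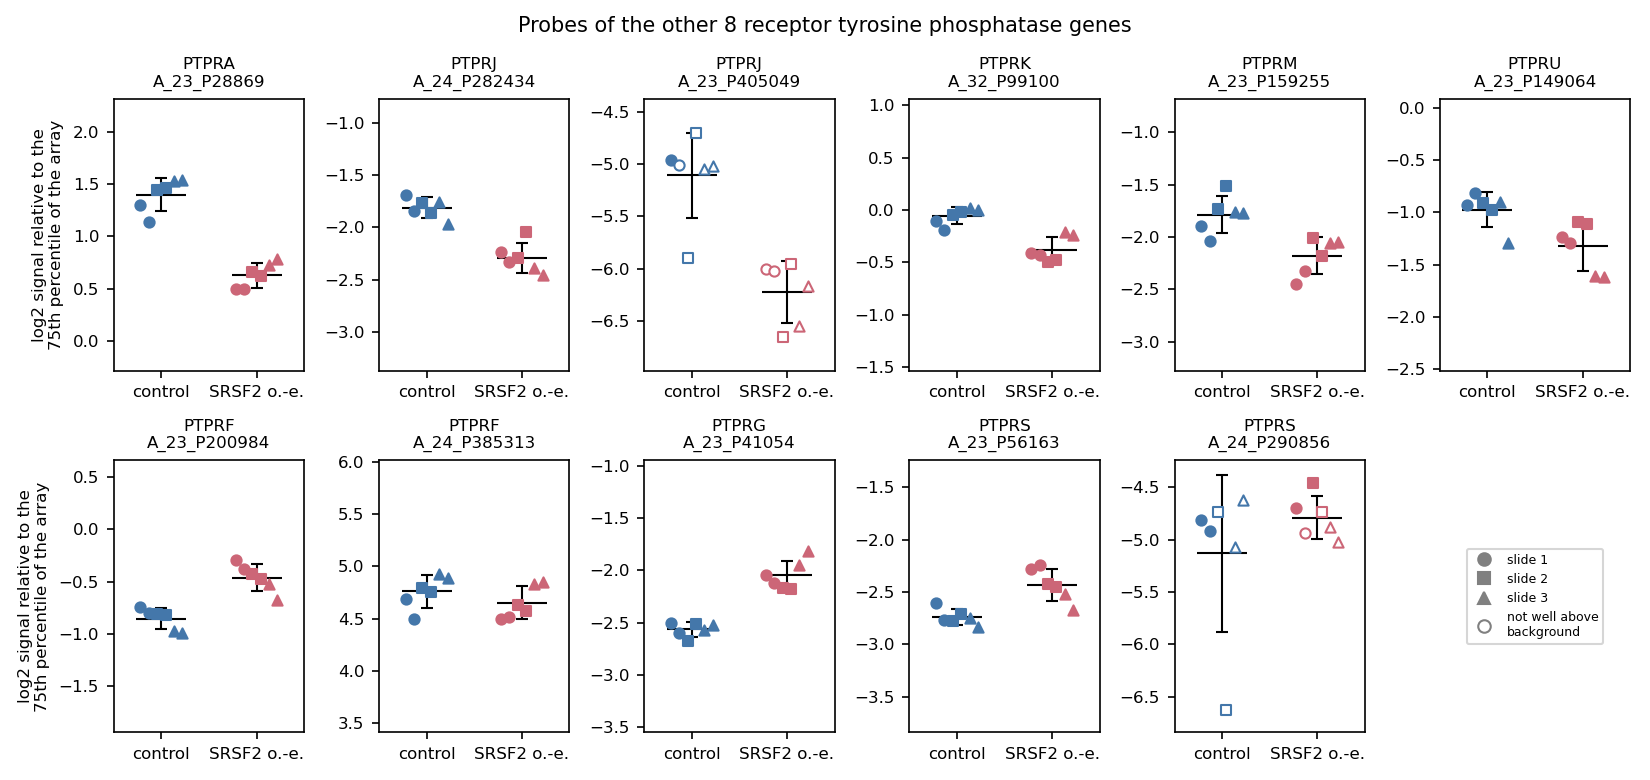
Log2 signal relative to each array's 75th percentile (y axis, each panel spanning the same log2 range) for the 11 probes of the other 8 genes, on control arrays and arrays labelled SRSF2 over-expression (SRSF2 o.-e.), 6 each. Symbols give the slide, open symbols mark arrays not well above background, and lines are mean ± SD. PTPRA and PTPRG show the widest gaps between conditions, 0.36 and 0.32, and the sign of PTPRG, PTPRS A_23_P56163 and PTPRF A_24_P385313 depends on the background or scaling used.

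Ordered by difference, A_24_P213503 and A_24_P213494 of PTPRE were lowest, at -2.49 and -2.44, and their standard errors of 0.37 and 0.25 do not separate them. PTPRA and PTPRE A_23_P138495 followed at -0.77 and -0.74, which differ by less than either standard error. PTPRJ A_24_P282434, PTPRM, PTPRU and PTPRK lay between -0.48 and -0.32, each differing from its neighbour by less than the larger of their standard errors. PTPRF A_24_P385313 came next at -0.11, and then PTPRS at 0.31, PTPRF A_23_P200984 at 0.39 and PTPRG at 0.52. In this order 9 of the 12 tested probes were lower and 3 higher on arrays labelled SRSF2 over-expression, with a median difference of -0.37 beside 0.011 over all 24330 probes. Under spike-in scaling 8 were lower and 4 higher, and under normexp 10 and 2. Spike-in scaling moved the median of all probes by 0.21 and normexp by -0.11. Relative to that shift, PTPRF A_24_P385313 was -0.11 under spike-in scaling, and PTPRG and PTPRS A_23_P56163 were 0.097 and 0.038 under normexp.

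A probe was called when its adjusted p was 0.05 or lower and its change 2-fold or more. Of the 12 tested probes 2 were called, A_24_P213494 and A_24_P213503 of PTPRE, both lower and 0 higher, beside 7.00% of all probes called, 3.31% lower and 3.68% higher. An adjusted p of at most 0.05 without the fold was met by 11 of the 12 probes, 8 lower and 3 higher, beside 57.7% of all probes, 28.0% lower and 29.7% higher. Arrays did not overlap for 7 of the 12, beside 40.2% of all probes. The sign was the same on all 3 slides for 12 of the 12, beside 74.0%. Under spike-in scaling only 4 of the 12 met that adjusted p, 2 lower and 2 higher, and under normexp 2, both lower. With the slide as a block all 12 met it, with arrays of a slide averaged 8, and with both 11. PTPRE was chosen for this contrast, and A_24_P213503 passed the filter through the control arrays, where it is high, so nothing is read from these counts or shares. A_24_P213503 was not tested under the stricter filter and, at -1.23, was not called under normexp, where A_24_P213494 was -1.66 and called.

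**Figure D4:**
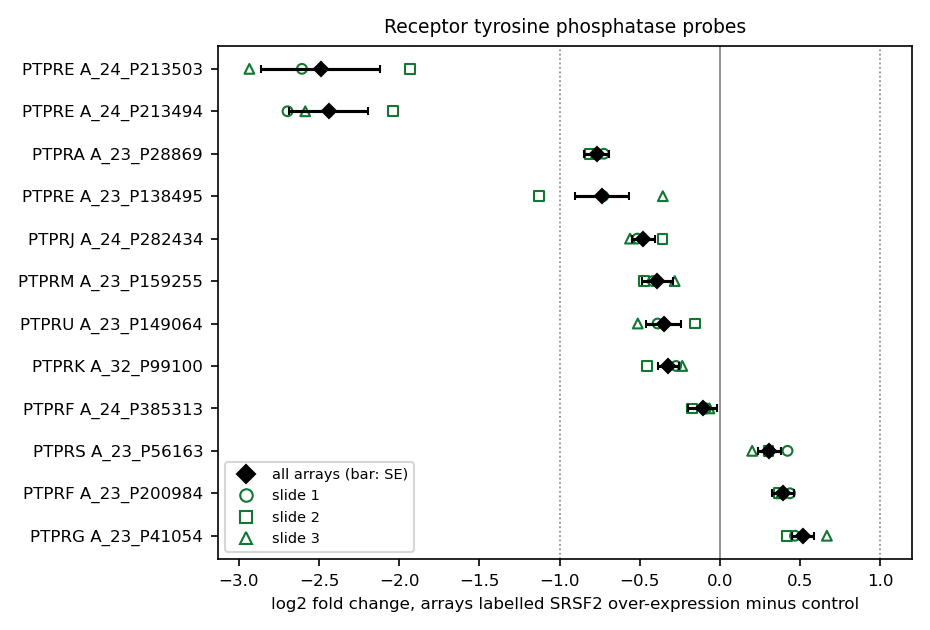
Log2 difference, arrays labelled SRSF2 over-expression minus control (x axis), for the 12 tested probes of the 9 genes. Filled diamonds are the fit over all 12 arrays with its standard error, open symbols the difference within each slide, and dotted lines mark a 2-fold change. Values run from -2.49 for PTPRE A_24_P213503 to 0.52 for PTPRG; PTPRG and PTPRS turn below 0 under normexp, and PTPRF A_24_P385313 turns above 0 under normexp and spike-in scaling.

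The values of PTPRE A_24_P213494 over the 12 arrays were set against 14203 probes well above background on all arrays. They hold the difference between conditions as well as the slide pattern, high on slide 2 in both conditions. By Pearson correlation over the 12 arrays, the most alike named probes were TLE1 (r = 0.998), ANKRD11 (0.996), XXYLT1 (0.996), THAP4 (0.995) and NCAPH2 (0.995). Arrays share slides, labelings and conditions, and these values describe likeness only. The 5 probes were lower on arrays labelled SRSF2 over-expression by different amounts, from -0.83 for THAP4 to -2.26 for ANKRD11. As for PTPRE A_24_P213494, the smallest difference of each was on slide 2. The direction and this slide order come with how the 5 were picked, and nothing is read from them.

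Other genes of the same signalling were taken from lists and tested in the same fit over all probes. Of 15 probes of other receptor-type phosphatase genes, 3 were tested and 8 were well above background on no array, among them those of PTPRT, PTPRO and PTPRN2. PTPRH differed by 0.013 and PTPRR by 0.19 (limma, adjusted p = 0.116). The third tested probe is PTPRCAP, which encodes a protein bound to CD45 and is no phosphatase, and it rose by 0.65 (SE 0.15, limma adjusted p = 0.00249) but was -0.13 and did not pass under normexp.

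Of all 24330 probes, 29.7% rose and 28.0% fell at an adjusted p of 0.05 or lower, beside which the counts of these lists stand. With arrays of a slide averaged, 2 cytosolic phosphatase probes rose and 4 fell. Src family kinases then had 1 and 3, ligands 2 and 2, liprins and cadherin partners 5 and 7, proteases 4 and 3. With the slide also as a block, these lists had 6 and 6, 1 and 5, 5 and 6, 6 and 9, and 5 and 3. Of 20 tested probes of cytosolic classical phosphatases, 7 rose, 6 fell and 7 did not pass, with none past 2-fold and a median of 0.046; under spike-in scaling 4 rose and 0 fell, and under normexp 0 rose and 2 fell. PTPN21, a phosphatase with a FERM domain, rose by 0.84 (SE 0.071, limma adjusted p = 5.64e-07). Its relative PTPN14 fell by 0.61 at A_24_P2648 (adjusted p = 0.0178, limma), where the groups overlapped. The other tested PTPN14 probe, A_23_P149111, rose by 0.31 (adjusted p = 0.00796, limma), and its groups did not overlap. PTPN2, known to act on JAK kinases, rose by 0.58 at A_23_P309701 (limma, adjusted p = 1.91e-06). Its probes A_23_P207940, at -0.16, and A_32_P1445, at 0.21, did not pass (limma, adjusted p = 0.124 and 0.0754). PTPN9 rose by 0.57 (limma, adjusted p = 0.0177). PTPN21, PTPN14 A_24_P2648, PTPN2 A_23_P309701 and PTPN9 did not pass under normexp, where PTPN9 was -0.15.

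The next list holds the Src family kinases, substrates of PTPRA and PTPRE, and the genes that restrain them. Of 9 tested probes, 6 fell and 1 rose, beside 28.0% and 29.7% of all probes, none past 2-fold, with a median of -0.22; under spike-in scaling 1 fell and 1 rose, and under normexp 2 fell and none rose. FYN fell by 0.80 (SE 0.089, limma adjusted p = 6.58e-06), with -0.80, -0.75 and -0.86 on the 3 slides, and passed under both alternatives. PAG1, the membrane adaptor that recruits CSK, fell by 0.57 at A_23_P347070 (limma, adjusted p = 7.89e-06). Its probe A_32_P61684 differed by -0.11 and did not pass (limma, adjusted p = 0.205). CSK, the kinase that places the inhibitory phosphate on Src, fell by 0.37 (limma, adjusted p = 0.000323). Neither CSK nor A_23_P347070 of PAG1 passed under spike-in scaling. FRK rose by 0.54 (limma, adjusted p = 7.90e-06) but was 0.014 under normexp.

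Genes of the cadherin and catenin complex and of the liprins, the partners of PTPRK, PTPRM, PTPRF and PTPRS, gave 22 tested probes with a median of 0.036. Of these, 6 rose and 9 fell, but 4 rose and 1 fell under spike-in scaling, and 1 rose and 1 fell under normexp. The 22 probes read 12 genes. Past 2-fold were 9.09%, beside 7.00% of all probes. These were 1 probe of CTNNB1 and 1 of PPFIBP1, and any other tested probe of these genes was not called. CTNNB1 (beta-catenin) rose at A_23_P29499 by 1.34 (SE 0.14, limma adjusted p = 3.43e-06), with 1.39, 1.31 and 1.32 on the slides and 0.94 under normexp. PPFIBP1 (liprin beta) fell at A_24_P811704 by 1.37 (SE 0.20, limma adjusted p = 6.21e-05), and it did not pass under normexp. Only 3 of 6 arrays labelled SRSF2 over-expression were well above background there, and with dim arrays raised as for PTPRE its fall was 2.52-fold. CDH1 (E-cadherin) differed by 0.026 (limma, adjusted p = 0.754).

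Ligands of receptor-type phosphatases had 24 tested probes, of which 5 rose and 6 fell, none past 2-fold, with a median of -0.013. Under spike-in scaling 4 rose and 0 fell. IL1RAP, a binding partner of PTPRF and PTPRS, fell by 0.83 at A_24_P180165 (limma, adjusted p = 0.000976), where only 1 of 6 arrays labelled SRSF2 over-expression was well above background. With dim arrays raised as for PTPRE, that fall was 1.54-fold. IL1RAP also fell by 0.54 at A_23_P170857 (limma, adjusted p = 0.0009), whereas its probe A_23_P336554 was 0.44 higher. SLITRK6 fell by 0.50 (limma, adjusted p = 0.00306), and SDC2, a heparan sulfate proteoglycan, rose by 0.45 (limma, adjusted p = 0.00121). None of the 24 passed under normexp.

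Receptor-type phosphatases are cut by furin, ADAM proteases and gamma-secretase. Of 16 tested probes of these proteases, 6 rose and 4 fell, none past 2-fold, with a median of 0.097. Under spike-in scaling 3 rose and 2 fell, and under normexp 1 rose and 2 fell. All 3 probes of PSEN2, a catalytic subunit of gamma-secretase, fell, by 0.88 (limma, adjusted p = 2.04e-08) at A_24_P62521, 0.83 (adjusted p = 2.37e-07) at A_23_P103398 and 0.78 (adjusted p = 4.10e-05) at A_23_P96985. The last of these did not pass under spike-in scaling or normexp. APH1A, another subunit, rose by 0.91 at A_23_P930 (limma, adjusted p = 1.48e-05) and passed under both. FURIN differed by 0.046 and ADAM10 by -0.12.

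**Figure D5:**
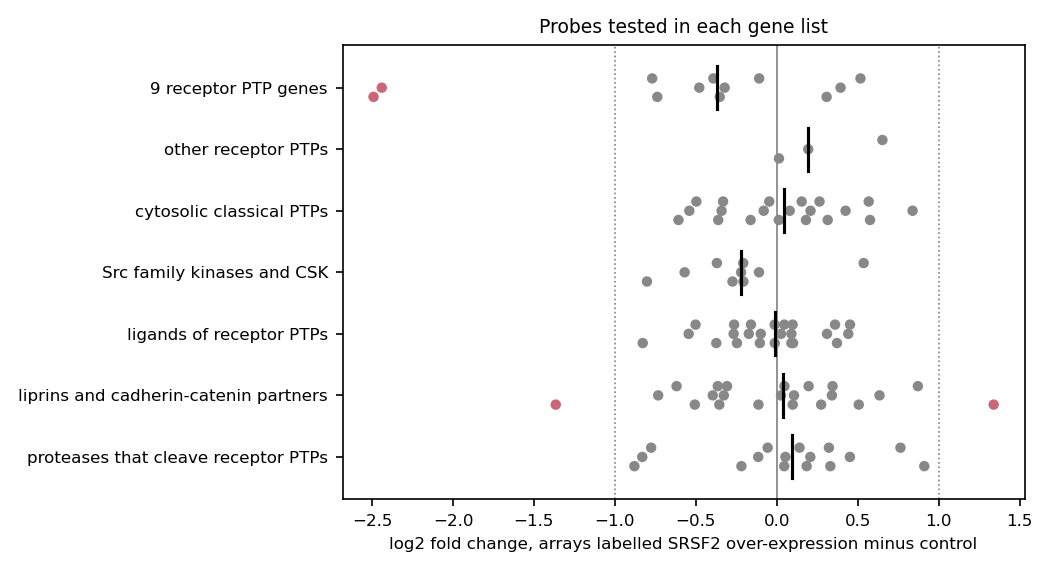
Log2 difference, arrays labelled SRSF2 over-expression minus control (x axis), for every tested probe of the 9 genes and of 6 lists of related genes. Points are probes, coloured where called (adjusted p 0.05 or lower, change 2-fold or more), short lines are medians, and dotted lines mark 2-fold. The only called points are PTPRE, at -2.49 and -2.44, PPFIBP1 at -1.37 and CTNNB1 at 1.34; spike-in scaling moves the median of all probes up by 0.21 and turns the ligand median above 0, and normexp turns the medians of other receptor PTPs, cytosolic PTPs and proteases below 0.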

How the data were processed

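Total RNA was labelled with cyanine3 and hybridised to one-colour Agilent arrays. The authors deposited, per array, Feature Extraction 10.7.3.1 output with the processed intensity of each spot after background subtraction, and a table of log2 values. That table, deposited by the authors, equals the same intensity as log2 after scaling on each array's 75th percentile, with every probe centred; over 24330 probes the median absolute difference was 0.0078 and its column medians lay between -0.024 and 0.012. The methods name GeneSpring, exclusion of genes missing in over 25% of samples, a 2-fold threshold and a t-test adjusted by Benjamini-Hochberg, but no normalization.

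Log2 processed intensities were averaged over the spots of a probe, without control and outlier spots, and the 75th percentile of gene probes was subtracted per array. Probes with no more than 25% of arrays missing, read well above background by 5 or more of 6 arrays in either condition, were fitted with limma 3.58.1 (lmFit, eBayes, no covariates) in R 4.3.3, with Benjamini-Hochberg adjustment over 24330 probes. Summaries used Python 3.11.15 and pandas 2.3.3. On simulated data of 23740 probes, 192 of 200 changed probes were recovered and 0 others called. A call needs a difference of 2-fold or more, and the recovery of smaller differences was not tested. The simulated arrays varied independently, whereas the real arrays of a slide deviated together, so the simulation does not cover that dependence.

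Symbols came from the RefSeq table of GRCh38.p14, which named 23958 of 25868 probes with a RefSeq accession; the files' annotation is of another build, so no coordinates are given. The members and lists were chosen with earlier results of these data known. All probes of the 9 genes are named; from each list at most the 4 probes with the largest called change, or else the largest passing an adjusted p of 0.05; and the 5 probes most alike to PTPRE. PTPRH, PTPRR, PTPRC, PTPRT, PTPRO, PTPRN2, IL1RAP A_23_P336554, CDH1, FURIN, ADAM10 and the probe A_24_P921321 were named outside that rule after their values were seen. So were PTPN14 A_23_P149111, PTPN2 A_23_P207940 and A_32_P1445, and PAG1 A_32_P61684.

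The labels number arrays 1 to 6 in both conditions. Arrays of the same number deviated together (r from 0.28 to 0.64), as did other arrays of the slide (0.33 to 0.65) but not of other slides (-0.48 to -0.047). Arrays thus went together by slide and not by number alone. Which arrays share a labeling was not given, so slide and labeling cannot be told apart. Alternatives changed the scaling (median, quantile normalization or 7 spike-in probes), the background (normexp with an offset of 50, or none subtracted), the values (the authors' table, or with outlier spots), the filter (none, or 9 of 12 arrays), the test (the methods' t-test, or a block for replicate number or slide), the replicates (arrays of a slide averaged, or 1 slide left out) and the fold threshold (none). Mean spot intensity was not used here, and the median took its place. The number of arrays limits the precision, as does signal over background for dim probes.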

Additional observations from a re-analysis of the deposited data

Results flagged for a closer look

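Among 28 groups of 6 arrays, 3 held 1 array far from the other 5, and chance alone flags about 1 in 20 such groups. For PTPRU A_23_P149064, control replicate 6 was at -1.30 while the other control arrays lay between -0.98 and -0.82, and without it the difference was -0.42. For PTPRJ A_23_P405049, control replicate 3 was at -5.90 while the others lay between -5.05 and -4.71. For PTPRS A_24_P290856, control replicate 4 was at -6.63 while the others lay between -5.07 and -4.62. The PTPRJ and PTPRS arrays named here were not well above background for these probes, and none of the 3 values came from a spot with an outlier mark.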

How the results depend on the processing

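Over all probes 1702 were called, and 1639 to 1916 with 1 slide left out, with 2 PTPRE probes called each time. Normexp background correction gave 328 calls and 1 member, no background subtraction 798 calls, the stricter filter 1 member, and no fold threshold 14042 calls and 11 members. Spike-in scaling moved the median of all probes by 0.21 and the share of calls that were higher from 52.6% to 78.8%. With the replicate number as a block 1706 probes and 2 members were called, and with the slide as a block 1705 and 2; pairing changed no member's call, while PTPRF A_24_P385313 met the adjusted p of 0.05 with the slide as a block. Of 203 member differences over 17 alternatives, 184 moved by less than the spread between arrays and 19 by more, all 19 under spike-in scaling, normexp or no background subtraction. No called member turned in sign, but PTPRF A_24_P385313, PTPRG and PTPRS A_23_P56163 did. A_23_P405049 of PTPRJ was called without a filter. The cause was not tested. Dim probes, A_24_P213503 above all, are limited by their signal over background.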
